A study of Rattus norvegicus with 6 samples.

Results

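Peptides reach the cell surface on MHC class I molecules through a short chain of proteins, and 10 genes of that chain were followed here in 6 rat insulinoma lines: the inducible proteasome subunits Psmb8, Psmb9 and Psmb10, the peptide transporter subunits Tap1 and Tap2, the trimming peptidase Erap1, the loading factor Tapbp, the light chain B2m, and the regulators Nlrc5 and Irf1. They were taken by symbol from the table of normalized counts, which holds 32900 features. Each had 1 row and passed the filter on low values (an average of 5 or more), which 15579 genes passed and were tested. All lines are INS-1(832/13)::mCherry cells, a rat beta-cell tumour line that carries a human insulin transgene with a neomycin resistance marker and a mouse Ins2 transgene with mCherry in the C-peptide. The control lines 5-9, 2 and 16 have the Prader-Willi syndrome (PWS) imprinted domain deleted from the silent maternal allele, and the PWS INS-1 lines 3, 19-1 and 19-4 have it deleted from both alleles, so that the deletion of the maternal copy is common to all 6. Lines 2 and 16 and the PWS lines were isolated from line 5-9 or its descendants, and 19-1 and 19-4 are subclones of line 19, so that the 3 PWS lines stand for 2 clones. Total RNA from cells in 7.5 mM glucose was depleted of rRNA and sequenced, with 1 library per line, to compare gene expression with and without the active copy of the domain. A normalized count is the number of reads of a gene divided by the size factor of its library.

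Levels of Psmb8, Tap1, Tap2 and Psmb9, which lie side by side in the MHC region, were 0.421 to 0.589 of the control level in the PWS lines by the fitted fold change (back from the log2 scale), and those of Psmb8, Tap1 and Tap2 were lower in each PWS line than in any control line. Nlrc5 was the one gene of the 10 whose level was higher in each PWS line than in any control line, with a fitted fold change of 1.32. The other 5 genes, Tapbp, Psmb10, B2m, Erap1 and Irf1, overlapped between the groups. None of the 10 reached an adjusted p under 0.05 by limma, the test used for single genes, whereas DESeq2 called Tap1 and Psmb8. Control line 2 had the highest level of 9 of the 10 genes. In RNA from whole cultures, fewer cells that express a gene and less RNA per cell cannot be told apart.

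Class I molecules present fragments of proteins made inside the cell to cytotoxic T cells, and beta cells that present them are the target of such T cells in autoimmune diabetes. The proteasome cuts proteins into peptides, and interferon induces subunits that take the place of its standard catalytic subunits. The transporter TAP carries the peptides into the endoplasmic reticulum, where they are trimmed, and tapasin (encoded by Tapbp) holds the empty class I molecule to the transporter until a peptide binds. Interferon regulatory factors, among them IRF1, bind the interferon-stimulated response element (ISRE), and NF-kB binds a site of its own, in the promoters of many of these genes. NLRC5 acts with a complex of DNA-binding proteins at class I promoters.

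Of the 10 genes, 8 were found in the table of RefSeq promoters of build GRCr8, each running from 250 bases before a gene's start to 50 bases after it, and Erap1 and Nlrc5 were not. The stretches with a match are shown because the same control sequences recur in genes whose groups overlapped and in genes whose groups did not. The letters searched on both strands were GAAA, any 2 bases and GAAA for the ISRE and GGGA, any base and TTTCC for NF-kB, and capitals mark these matches. Each stretch is written 5′ to 3′ on the strand of its gene.
Tap1 (chr20:4668640-4668679, minus strand): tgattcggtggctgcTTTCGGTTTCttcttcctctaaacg
Tap1 (chr20:4668574-4668613, minus strand): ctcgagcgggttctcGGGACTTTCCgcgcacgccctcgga
Tap2 (chr20:4652313-4652352, minus strand): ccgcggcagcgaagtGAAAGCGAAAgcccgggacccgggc
Psmb8 (chr20:4657026-4657050, minus strand): tcttggtgctgtggcTTTCGCTTTC
Tapbp (chr20:4967878-4967953, minus strand): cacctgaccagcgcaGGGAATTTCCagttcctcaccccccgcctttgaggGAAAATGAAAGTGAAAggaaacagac
Psmb10 (chr19:50743341-50743380, minus strand): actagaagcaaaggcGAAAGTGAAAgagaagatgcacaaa
Psmb10 (chr19:50743293-50743324, minus strand): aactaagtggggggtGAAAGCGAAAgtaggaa
B2m (chr3:129549165-129549217, plus strand): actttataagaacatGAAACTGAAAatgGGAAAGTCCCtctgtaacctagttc

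The ISRE letters were in the windows of 6 of the 8 genes (Tap1, Tap2, Psmb8, Tapbp, Psmb10 and B2m) and in 3.92% of all 33469 promoters of that table. Tapbp held 2 ISRE matches that overlap each other, and Psmb10 held 2 that do not. The NF-kB letters were in the windows of Tap1, Tapbp and B2m, against 0.362% of all promoters. A further element, TTC, any 3 bases and GAA, bound by STAT factors after interferon gamma and known as GAS, was in the windows of Irf1 and Psmb8, against 8.87% of all promoters, and CCAAT, the core of the site for NF-Y, was in those of B2m, Irf1, Psmb8 and Psmb9, against 37.5%. Among the 4 genes with the lowest log2 fold changes, the windows of Tap1, Tap2 and Psmb8 held the ISRE letters and that of Psmb9 did not. The windows of Tapbp, Psmb10 and B2m held them too, and these genes overlapped between the groups. Tap1 and Psmb9 are read from opposite strands with starts 456 bases apart, so that their windows share 44 bases. The Tap1 matches lie 121 to 112 bases (ISRE) and 55 to 46 bases (NF-kB) before its start. They are thus between the starts of Tap1 and Psmb9 but outside the window of Psmb9, which ends 250 bases before its start. In the RefSeq gene order of GRCr8, Tap2, Psmb8, Tap1 and Psmb9 follow each other on chromosome 20 with no other protein-coding gene between them. Tapbp lies farther along the same chromosome, and the other 5 genes lie on chromosomes 2, 3, 10 and 19. A match of letters is a description of the sequence and was not tested as a binding site.

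Psmb8 (ENSRNOG00000000456) encodes LMP7, the inducible subunit that takes the place of Psmb5. Its normalized counts were 119 in line 5-9, 267 in line 2 and 148 in line 16 among the controls, against 67.4 in line 3, 88.5 in line 19-1 and 57.3 in line 19-4 among the PWS lines, and values below follow the same order of lines. The groups did not overlap, and the lowest control line (5-9) lay above the highest PWS line (19-1). The log2 fold change, PWS minus control on the scale of log2(normalized count + 1), was -1.25 ± 0.30 (SE), which is the lowest of the 10 genes (limma adjusted p = 0.272 over all tested genes). DESeq2 on the recovered reads gave -1.33 with an adjusted p of 0.00759, and edgeR gave -1.33 with an adjusted p of 0.277.

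Many reads of Psmb8 were not unique. Only 41.9% of them remained when reads with several alignments or features were left out, and the row AABR07044414.1 lost 435 such reads, close to the 443 that Psmb8 lost. With those reads left out, Psmb8 had 44.6, 118 and 54.4 normalized counts in the control lines and 28.6, 44.1 and 23.7 in the PWS lines. The lines kept the same separation, with control line 5-9 just above PWS line 19-1, and the log2 fold change was -1.06 ± 0.38 (SE, limma adjusted p = 0.368).

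Psmb9 (ENSRNOG00000000459) encodes LMP2, the counterpart of Psmb6, and none of its reads was shared (100% unique). It had 81.7, 179 and 118 normalized counts in the control lines and 71.5, 87.3 and 55.5 in the PWS lines. PWS line 19-1 lay above control line 5-9, so the groups overlapped. The log2 fold change was -0.76 ± 0.29 (SE, limma adjusted p = 0.399). Without control line 2 it was -0.48 (limma adjusted p = 0.572).

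Psmb10 (ENSRNOG00000019494) encodes MECL-1, the counterpart of Psmb7 and the only one of the 3 inducible subunits whose gene lies outside the MHC. It had 702, 914 and 599.8 normalized counts in the control lines and 801, 778 and 636 in the PWS lines. Control lines held both the highest and the lowest value, and the group means were 739 ± 160.4 and 738 ± 89.9 (SD, n = 3 each). The log2 fold change of 0.014 ± 0.16 (SE) had an adjusted p of 0.983 by limma, with a 95% interval from -0.35 to 0.38.

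**Figure D1:**
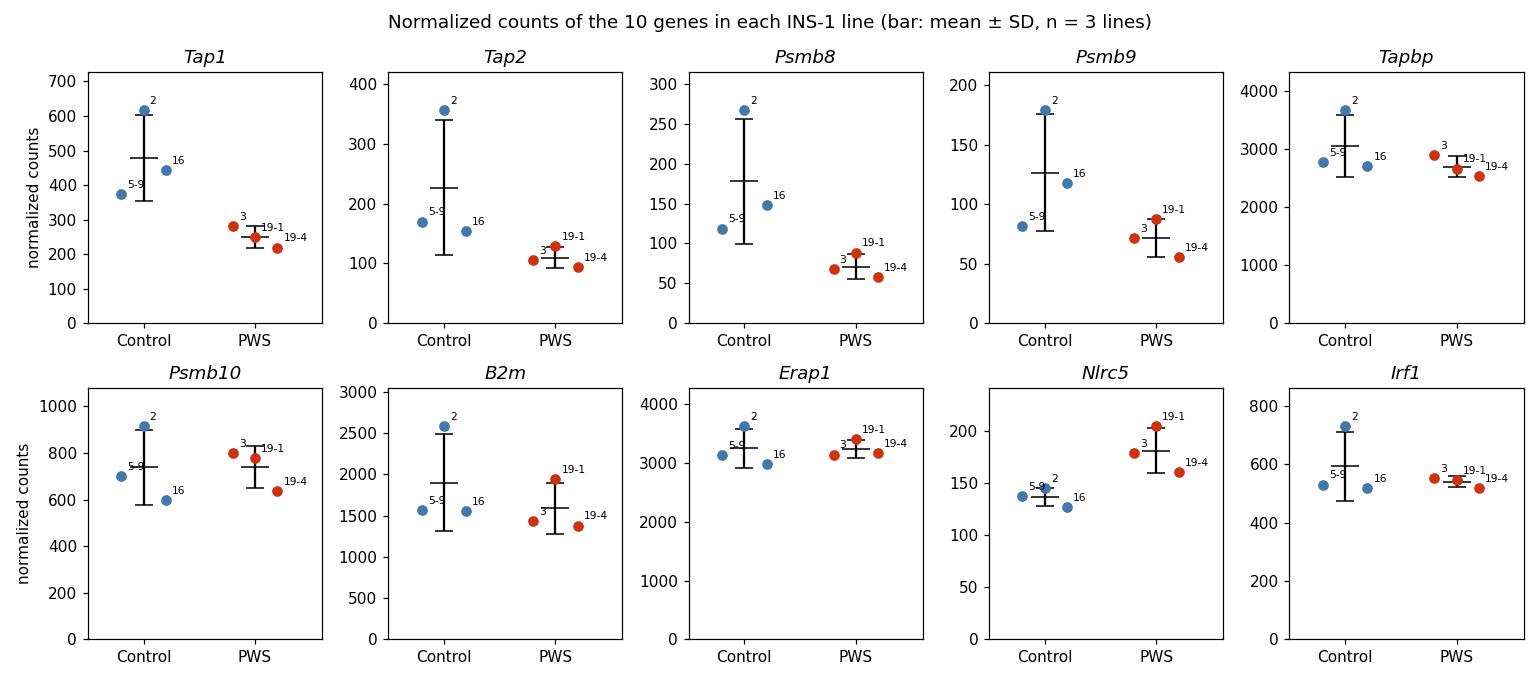
Normalized counts (vertical axes, each starting at 0) of the 10 genes in the 3 control lines (blue) and the 3 PWS lines (red), with 1 point per line and bars for mean ± SD. For Tap1, Tap2 and Psmb8 all red points lie below all blue points, for Nlrc5 all lie above, and control line 2 is the top point of every panel but that of Nlrc5.

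A ratio within a library does not depend on its scaling, so each inducible subunit was also set against the standard subunit it replaces. Per 100 normalized counts of Psmb5, Psmb8 had 4.37, 10.1 and 6.13 in the control lines and 2.60, 3.96 and 2.37 in the PWS lines. The groups did not overlap, and the log2 ratio was lower by 1.14 on average in the PWS lines (-5.09 ± 0.39 against -3.94 ± 0.60, SD, n = 3 each, two-sided exact permutation test p = 0.1, adjusted p = 0.3 over the 3 ratios). That is the smallest p that 3 lines against 3 allow. The difference was -0.99 with unique reads alone and -1.01 with the RSEM table, each with an exact permutation p of 0.2, so that the full separation of the lines was lost with both.

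Psmb9 had 2.94, 6.79 and 4.64 per 100 normalized counts of Psmb6 in the control lines and 2.54, 3.97 and 2.30 in the PWS lines. Line 19-1 again lay above line 5-9, and the mean log2 ratio differed by -0.66 (exact permutation p = 0.2, adjusted p = 0.3). For Psmb10 per 100 of Psmb7 the values were 10.5, 13.7 and 9.97 in the control lines and 13.3, 14.4 and 10.2 in the PWS lines, which overlapped, with a difference of 0.15 (exact permutation p = 0.5, adjusted p = 0.5). The standard subunits themselves had log2 fold changes of -0.10 (Psmb5), -0.11 (Psmb6) and -0.14 (Psmb7), with adjusted p values of 0.668, 0.716 and 0.558 by limma.

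**Figure D2:**
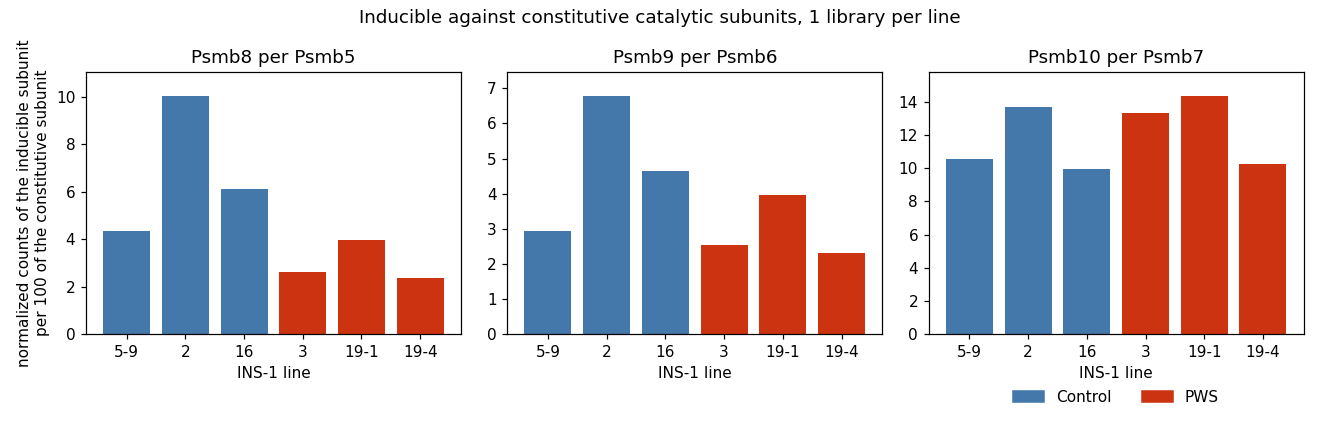
Normalized counts of each inducible proteasome subunit per 100 of the standard subunit it replaces (vertical axes, each starting at 0), with 1 bar per INS-1 line and 1 library per line. Bars of Psmb8 per Psmb5 are lower in the 3 PWS lines (2.37 to 3.96) than in the 3 control lines (4.37 to 10.1), while those of Psmb10 per Psmb7 overlap.

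Tap1 (ENSRNOG00000000457), a subunit of the peptide transporter, had 374, 617 and 444 normalized counts in the control lines and 281, 249.9 and 219 in the PWS lines. Each PWS line lay below each control line, and the group means were 478 ± 125 and 249.9 ± 30.8 (SD, n = 3 each). The log2 fold change was -0.91 ± 0.19 (SE), with a 95% interval from -1.34 to -0.48 (limma adjusted p = 0.222). DESeq2 gave -0.94 with an adjusted p of 0.00108, and edgeR gave -0.93 with an adjusted p of 0.226. Of its reads 94.7% were unique, and with unique reads alone it had 337, 575 and 431 normalized counts in the control lines and 274, 245 and 209.8 in the PWS lines, again without overlap.

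Tap2 (ENSRNOG00000000455), the partner subunit, had 170.0, 356 and 154 normalized counts in the control lines and 106, 129 and 93.6 in the PWS lines. Each PWS line lay below each control line, with line 19-1 nearest to control line 16. The log2 fold change was -0.95 ± 0.30 (SE, limma adjusted p = 0.333), and DESeq2 gave an adjusted p of 0.0523. Without control line 2 the log2 fold change was -0.57 (limma adjusted p = 0.402). Only 0.0969% of the reads were unique. The row whose numbers of non-unique reads per line were closest was LOC103689996, with 948 such reads against 1031 for Tap2, and the files do not say which rows hold the same read. That row had 148, 329 and 146 normalized counts in the control lines and 100.05, 127 and 86.4 in the PWS lines (log2 fold change -0.89 ± 0.31, SE, limma adjusted p = 0.364). As hardly any read of either row was unique, its values are not counted as a second measurement of Tap2. RSEM, which divides shared reads between rows by an estimate, gave Tap2 86.3, 183 and 64.5 normalized counts in the control lines and 54.0, 48.3 and 59.3 in the PWS lines, again without overlap.

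Erap1 (ENSRNOG00000009997), the peptidase that trims peptides inside the endoplasmic reticulum, had 3135, 3618 and 2982 normalized counts in the control lines and 3140.3, 3406 and 3159 in the PWS lines. All 3 PWS values lay within the range of the controls, and the log2 fold change had a 95% interval from -0.20 to 0.20 (limma adjusted p = 0.998). Control line 2 was 0.24 higher on the log2 scale than the mean of the other two controls, against 1.13 for Tap2.

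Tapbp (ENSRNOG00000029500), the gene of tapasin, had 2771, 3663 and 2709 normalized counts in the control lines and 2894, 2658 and 2530.2 in the PWS lines. The groups overlapped, since line 3 lay above lines 5-9 and 16, and the log2 fold change was -0.17 ± 0.12 (SE, limma adjusted p = 0.641). B2m (ENSRNOG00000017123), the light chain that every class I molecule needs, had 1567, 2582 and 1557 normalized counts in the control lines and 1436, 1946 and 1381 in the PWS lines. Line 2 was the highest and line 19-1 the next, ahead of the other two controls, and the log2 fold change was -0.24 ± 0.21 (SE, limma adjusted p = 0.714). Without control line 2 that of Tapbp was -0.027 and that of B2m 0.0062.

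Nlrc5 (ENSRNOG00000048222), the transactivator of class I genes, had 138, 145 and 127 normalized counts in the control lines and 179, 204 and 161 in the PWS lines. The highest control line (2) lay below the lowest PWS line (19-4). The log2 fold change was 0.40 ± 0.14 (SE, limma adjusted p = 0.358), and the value was 0.44 without control line 2. The direction was thus opposite to that of Tap1, Tap2, Psmb8 and Psmb9 in the same libraries. With the RSEM table the log2 fold change was 0.33 (limma adjusted p = 0.532).

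Irf1 (ENSRNOG00000008144), a transcription factor that interferon induces, had 531, 729.8 and 519 normalized counts in the control lines and 554, 546 and 520.0 in the PWS lines. The PWS values lay within the range of the controls, close to lines 5-9 and 16, and the log2 fold change was -0.12 ± 0.14 (SE, limma adjusted p = 0.792).

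Over the 10 genes, 8 had a lower mean on the log2 scale in the PWS lines and the median log2 fold change was -0.20, against -0.0028 over all tested genes. Without control line 2 the median of the 10 was -0.0102. At an unadjusted p under 0.05, limma gave 4 lower genes (Psmb8, Tap1, Tap2 and Psmb9), where 5.35% of all tested genes were lower at that p, and 1 higher (Nlrc5), where 6% were higher. Without overlap between the groups, 3 were lower, as were 9.01% of all tested genes, and 1 was higher, as were 8.43%. By adjusted p under 0.05, limma gave 0 of the 10, with 0.257% of all tested genes past it in either direction and 0.25% lower. edgeR gave 0 of the 10 (0.205% of all), with 4 lower at an unadjusted p under 0.05 (5.24% of all), and DESeq2 gave Tap1 and Psmb8 (0.783% of all were called lower, 1.46% in either direction). The 4 lie next to each other in the gene order, and many reads of Tap2 and Psmb8 were not unique. With unique reads alone 3 genes (Tap1, Psmb8 and Psmb9) were lower at an unadjusted p under 0.05, against 5.29% of the genes tested there, and with the RSEM table the same 4 were, against 5.1%. Apart from Tap2 and Psmb8, the other 8 genes each had more than 90% of their reads unique.

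Control line 2 had the highest level of the 6 lines for 9 of the 10 genes, where 24.5% of all tested genes were highest in that line. Its median difference from the other two controls over the 10 genes was 0.55 on the log2 scale, against -0.00024 over all tested genes. The lowest level was in PWS line 19-4 for 6 genes and in control line 16 for 4. Relative to the mean of the controls, the median of the 10 genes was -0.19 in line 5-9, 0.36 in line 2, -0.17 in line 16, -0.22 in line 3, -0.14 in line 19-1 and -0.34 in line 19-4, so that by this measure line 19-1 lay above lines 5-9 and 16.

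**Figure D3:**
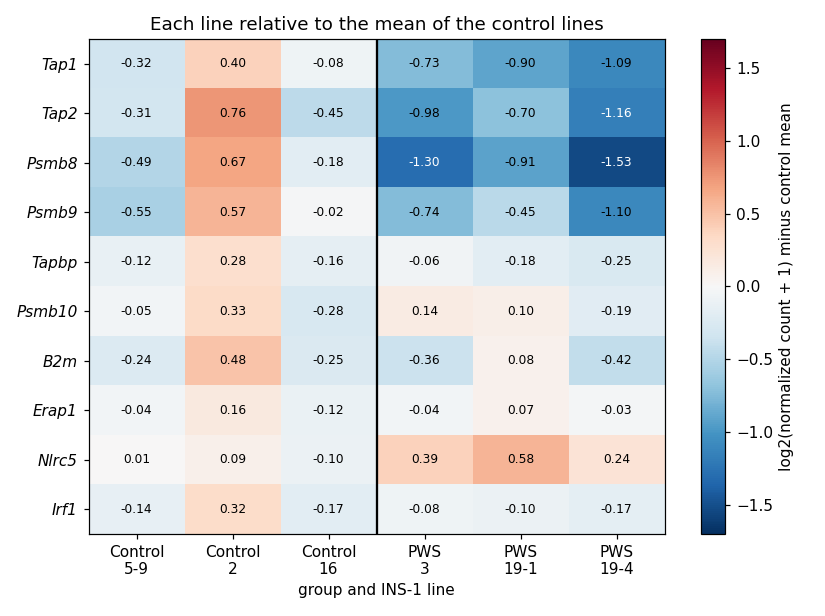
Difference of each line from the mean of the control lines on the log2(normalized count + 1) scale for the 10 genes (rows) in the 6 INS-1 lines (columns), with red for higher and blue for lower. The column of control line 2 is red throughout, from 0.09 for Nlrc5 to 0.76 for Tap2, and the darkest blue cells, from -0.70 to -1.53, are those of Tap1, Tap2 and Psmb8 in the 3 PWS lines and of Psmb9 in lines 3 and 19-4.

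Because one control library stood apart, the differences of the 10 genes were also computed without it. Without control line 2 the log2 fold changes were -0.91 for Psmb8 (limma adjusted p = 0.375), -0.71 for Tap1 (adjusted p = 0.306) and -0.57 for Tap2 (adjusted p = 0.402). These 3 remained lower at an unadjusted p under 0.05, where 4.7% of all tested genes were lower at that p, and Psmb9 did not. The median over the 10 genes moved to -0.0102, and Psmb10 (0.18), Erap1 (0.080), Irf1 (0.042) and B2m (0.0062) then lay above 0.

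**Figure D4:**
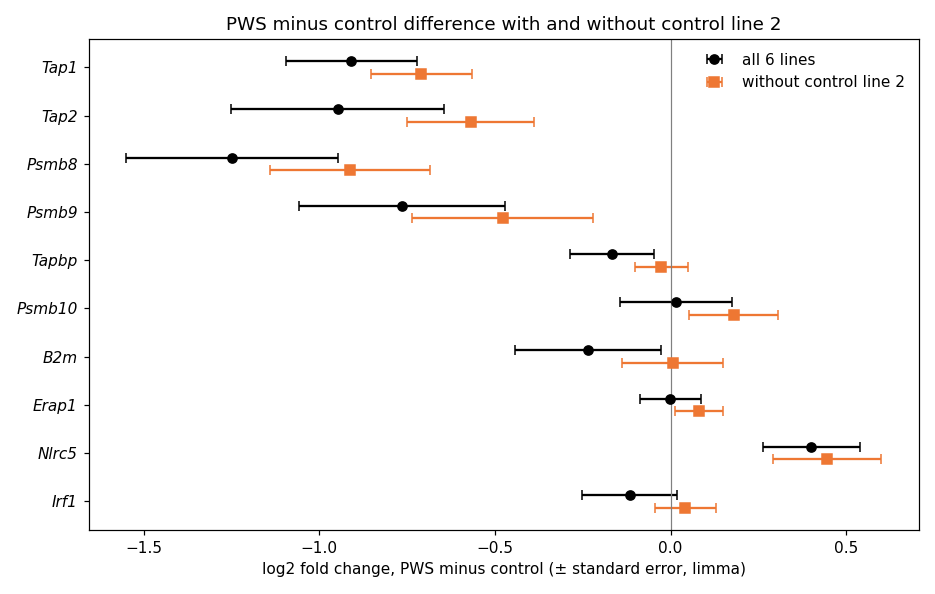
Log2 fold change, PWS minus control, with its standard error from limma for the 10 genes, computed over all 6 lines (black circles) and without control line 2 (orange squares). The values of Tap1, Tap2, Psmb8 and Psmb9 stay left of 0 in both (-1.25 to -0.76 and -0.91 to -0.48), that of Nlrc5 stays right of 0, and the other 5 lie close to 0 without line 2.

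The heavy chains of class I, which pair with B2m, are encoded in the rat by genes named RT1. Of 21 such rows 18 were tested, and 16 had a lower mean in the PWS lines, as had 7901 of all 15579 tested genes. Their median log2 fold change was -0.23. None had an unadjusted limma p under 0.05. Without control line 2, a setting chosen after seeing the data, 6 of the 18 had a lower mean and the median was 0.046. RT1-A1, a classical class I heavy chain gene, had 6264, 8781 and 5704 normalized counts in the control lines and 6512, 6626 and 5595 in the PWS lines, so that control line 2 was the highest and the other lines of both groups lay together below it. Line 2 was the highest line for 14 of the 18, where 24.5% of all tested genes were highest in that line. Its median difference from lines 5-9 and 16 was 0.67 (log2). The median relative to the control mean was -0.20, 0.45 and -0.22 in lines 5-9, 2 and 16 and -0.14, -0.11 and -0.30 in lines 3, 19-1 and 19-4. The lowest log2 fold change was that of RT1-M6-2 (-0.79, limma adjusted p = 0.595) and the highest that of RT1-M3-1 (0.12, adjusted p = 0.645). RT1-M3-1 was the only one of the 18 without overlap between the groups, and 8.43% of all tested genes were likewise higher without overlap. Many RT1 genes are near-identical, and only 7 of the 18, RT1-M3-1 (97.6%) and RT1-A1 (70.3%) among them, had more than 50% of their reads unique, so the values of the others are uncertain. A read that fits several rows was counted at each, so the 18 rows are not separate measurements.

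Further steps of the pathway were taken from lists of known genes, and in none of them did a gene reach an adjusted p under 0.05 by limma or DESeq2. The interferon-inducible proteasome activator gene Psme1 had 1139, 1115 and 1083 normalized counts in the control lines and 1198, 1350.0 and 1340.1 in the PWS lines, higher without overlap (log2 fold change 0.22, limma adjusted p = 0.358). It was the highest of 4 activator genes, none of which had a lower mean in the PWS lines, and Psme3 was the lowest at 0.021. Psme2 was also higher without overlap (0.080, limma adjusted p = 0.680), as were 8.43% of all tested genes. All 4 chaperone genes of peptide loading had a lower mean, from -0.33 for Calr, the calreticulin gene (limma adjusted p = 0.407), to -0.074 for Tapbpl. Of these only Calr had an unadjusted limma p under 0.05 (0.033), where 5.35% of all tested genes were lower at that p. Only Canx (-0.15) was lower without overlap, as were 9.01% of all tested genes. Among 8 peptidase genes of the cytosol and endoplasmic reticulum the log2 fold changes lay between -0.11 (Lap3) and 0.35 (Npepps, the puromycin-sensitive aminopeptidase, limma adjusted p = 0.369), and the other 7 had an unadjusted p of 0.05 or more.

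Regulators and other interferon-induced genes were read in the same fit. Of 6 genes of NF-kB subunits and their inhibitor, 5 were highest in control line 2, as were 24.5% of all tested genes. Relb, a subunit of the noncanonical NF-kB pathway, had 186, 436 and 167 normalized counts in the control lines and 212, 189 and 100.01 in the PWS lines, so that line 2 had more than any other line and the rest overlapped (log2 fold change -0.58, limma adjusted p = 0.624). Nfkb2, its partner in that pathway, had 243, 431 and 270.1 against 213, 225 and 222, lower without overlap (-0.47, limma adjusted p = 0.437), and Rel had the highest log2 fold change of the 6 (0.16).

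Of 16 tested genes of interferon receptors and signalling, none had an unadjusted limma p under 0.05, and their log2 fold changes ran from -0.18 for the kinase gene Jak1 to 0.32 for Irf2. Of 28 interferon-induced genes 20 were tested, with a median of 0.040. Line 2 was the highest line for 4 of them, against 24.5% of all tested genes. Bst2, which encodes the antiviral protein tetherin, had 175, 141 and 178 normalized counts in the control lines and 229, 254 and 245 in the PWS lines, which is higher without overlap (0.56, limma adjusted p = 0.265). Ifi44 had 373, 345 and 350.2 against 409, 469.9 and 567, also higher without overlap (0.42, limma adjusted p = 0.318), and Rtp4 was the lowest of the list (-0.58, limma adjusted p = 0.861). Without overlap between the groups, 3 of the 20 were higher (Bst2, Ifi44 and Gbp2, 0.44), as were 8.43% of all tested genes. In the same way 1 was lower (Cmpk2, -0.19), as were 9.01% of all tested genes. Bst2 and Ifi44 were the only ones of the 20 past an unadjusted p of 0.05, where 6% of all tested genes were higher at that p. Without control line 2, a setting chosen after seeing the data, the median was 0.089 for the interferon-induced genes, -0.020 for the receptors and signalling genes and 0.0096 for the NF-kB genes (-0.085 with it). The genes of the DNA-binding complex at class I promoters, 8 of 9 tested, lay between -0.24 (Nfyc) and 0.10 (Creb1), none with an unadjusted limma p under 0.05.

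Genes of MHC class II, which are used by specialised presenting cells, were at low levels: 1 of 11 passed the filter on low values. That gene, RT1-DMa, had 26.6, 42.2 and 33.9 normalized counts in the control lines and 16.3, 7.17 and 18.2 in the PWS lines (log2 fold change -1.31, limma adjusted p = 0.293), but 0% of its reads were unique.

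Across the 6 lines, the level of Tap1 followed those of Psmb8 (Pearson's r = 0.966), Psmb9 (0.924) and Tap2 (0.922) closely and ran against that of Nlrc5 (-0.679). After the mean of each group was taken away, r was 0.876, 0.899, 0.825 and 0.419 for these 4, 0.926 for Tapbp, 0.888 for Irf1, 0.790 for Psmb10, 0.742 for B2m and 0.674 for Erap1. The 6 points share the libraries and their scaling, and line 2 lies far from the other controls, so r describes these lines and has no test. Among 11005 named genes averaging 50 or more, the 5 with levels most like Tap1 were Samd5 (r = 0.996), Nrg2 (0.995), Slc31a1 (0.994), Melk (0.991) and Osbp2 (0.990). All were lowest in PWS lines and highest in line 2, which follows from their choice by likeness to Tap1. Samd5, for example, had 61.7, 122 and 78.1 normalized counts in the control lines and 39.8, 38.3 and 32.7 in the PWS lines.

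Between 26016478 and 36084261 reads per line were counted when reads with several alignments were counted at each, so that 1 read was worth 0.909 to 1.20 normalized counts. The labels were checked against the deleted domain: Snurf had 3160 to 3992 normalized counts in the control lines and 0 to 3.64 in the PWS lines, and Mkrn3 had 82.7 ± 5.75 (SD, n = 3) in the control lines and 0 reads in each PWS line, which allows up to 3 reads a line. All 10 beta-cell markers examined were present, with a summed level of 493069 to 568596 in the control lines and 260272 to 462582 in the PWS lines. This sum, most of it from Ins1 (log2 fold change -0.57) and Iapp (-0.64), was lower in the PWS lines without overlap. Of the 10 markers 8 had a lower mean there, from Ins2 (-0.99) to Mafa (0.10), and the part of this difference in the values of the 10 genes was not tested. Leukocyte markers summed to 34.2 to 38.002 normalized counts in the control lines and 34.7 to 40.7 in the PWS lines. Of 7 such rows 2 had more than 3 reads in a line, Cd68 had a log2 fold change of -0.087, and Ptprc and Aif1 were at 0 reads. Endothelial and fibroblast markers summed to at most 7.34 in the control lines and 12.7 in the PWS lines (Kdr, 0.15), exocrine markers to at most 2.05 and 1.20, and the other islet hormones to 2.75 to 19.9 and 13.2 to 100.01, with Gcg at 2.12 (limma adjusted p = 0.541).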

How the data were processed

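RNA-seq of 3 control and 3 PWS INS-1 lines, 1 library per line, was analysed by group and line as the labels give them. Reads were trimmed with cutadapt, aligned with STAR 2.7.0e to the Ensembl 98 rat genome with custom features, and counted with HTSeq 0.11.2 (nonunique all or none) or RSEM 1.3.1. The deposited values are a signal, counts divided by the authors' DESeq2 size factors. Other deposited columns hold the authors' mean, log2 fold changes with their errors and test scores, and p-values, which were not used. In both tables from HTSeq all values above 0 (100%) were whole multiples of the value of 1 read within a relative tolerance of 1e-04, with a deviation of at most 2.33e-10 reads, so reads were recovered. On these, edgeR 4.0.16 called 32 and DESeq2 1.42.0 called 228 genes.

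The main test was limma 3.58.1 (lmFit and eBayes with trend, R 4.3.3) on log2(normalized count + 1) of the nonunique all table for genes averaging 5 or more, with Benjamini-Hochberg adjustment over 15579 genes and a threshold of 0.05. It was kept after reads were recovered. Unique reads are those of the nonunique none table. The tests were tested on simulated data. Independent cultures are not stated, so p-values measure the spread between lines.

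The 10 genes and all lists were chosen with earlier results of these data known. Named beside them were the lowest and highest gene of each list, rows close to Tap2 and Psmb8 in their numbers of non-unique reads, the standard subunits, Snurf and Mkrn3, and the 5 genes most like Tap1. RT1-A1, Psme2, Canx, Nfkb2, Ifi44, Gbp2, Cmpk2, Ins1 and Iapp were named after their values were seen. Alternatives were pseudocounts of 0.5 and 5, filters of any read or a mean of 50, TMM scaling, edgeR, DESeq2, eBayes without trend, the other 2 tables, each line left out, a replicate block, and 19-1 and 19-4 averaged. Promoter sequences came from RefSeq, build GRCr8.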

Additional observations from a re-analysis of the deposited data

How the results depend on the processing

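Across 18 alternatives the count of the 10 genes with an adjusted p under 0.05 stayed at 0 except with DESeq2, which gave 2 (Tap1 and Psmb8). Leaving out each line in turn gave 0 to 0 such genes, 3 to 4 genes lower at an unadjusted p under 0.05 (where 3.46% to 5.56% of all tested genes were), and a median log2 fold change of -0.30 to -0.0102, the latter without control line 2. Adjusted p ranged over all alternatives from 0.00108 to 0.566 for Tap1 and from 0.00759 to 0.569 for Psmb8. Tap1, Tap2, Psmb8, Psmb9, Tapbp and Nlrc5 kept their direction in every alternative that tested them. Tap2 was not tested with unique reads, too few to pass the filter.

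The sign of genes near 0 turned: Psmb10 to -3.27e-05 with edgeR, -0.0014 with DESeq2, and -0.12 to 0.18 with a line left out (-0.0116, -0.12, -0.048 and -0.027 without lines 5-9, 16, 3 and 19-1), and Erap1 to 4.68e-05 with unique reads and -0.059 to 0.080 with a line left out (0.080, 0.020 and 0.016 without lines 2, 3 and 19-4). With a line left out B2m ran from -0.39 to 0.0062 and Irf1 from -0.20 to 0.042, both above 0 only without line 2. The cause was not tested. With a line left out, the log2 ratio differences ran from -1.42 to -0.83 for Psmb8 over Psmb5, from -0.97 to -0.37 for Psmb9 over Psmb6 and from 0.05 to 0.29 for Psmb10 over Psmb7.

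With the replicate number as a block, 5 genes were lower at an unadjusted p under 0.05 (where 5.12% of all tested genes were), with B2m added (limma adjusted p = 0.402), and 0 by adjusted p. The median (-0.20) and the ratio differences (-1.14, -0.66 and 0.15) were those without the block. The numbers do not pair the lines: deviations of lines with the same number correlated at 0.0035, 0.0467 and 0.0051, and 2 of 3 lines in each group correlated best with their own number. With 1 library per line and 2 PWS clones, differences between lines and between groups rest on few clones. The 63 to 74 reads of Psmb8 in each PWS line, of which 26 to 37 were unique, limit its precision.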
